A study of Mus with 4 samples.

Results

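Cxcl10-positive satellite glia are the satellite glial cells (SGCs) of mouse dorsal root ganglia (DRGs) in which at least 2 transcripts of the chemokine gene Cxcl10 were counted. The barcodes had more than 500 genes, under 20% mitochondrial transcripts, at least 5 Fabp7 transcripts and at least 10 Fabp7 transcripts per 10000. Apoe and Fabp7 together also had to exceed the neuron genes Snap25, Uchl1 and Tubb3 together, and the myelinating Schwann cell genes Prx, Ncmap and Cldn19 together had to stay under 3 transcripts. The cells were thus chosen by their measured levels of Cxcl10 and of the other genes named here. Of 35113 cells kept in 4 libraries, 7979 passed this gate, and 1431 of those were Cxcl10-positive. Replicates 1 and 2 of each group are written CON1, CON2, CCI1 and CCI2, and 4 values in a row follow that order throughout. Cxcl10-positive glia numbered 160, 118, 183 and 970. The 6548 other glia of the gate, with 0 or 1 Cxcl10 transcript, are called Cxcl10-low and were the comparison cells within each library.

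Transcripts were counted by unique molecular identifiers (UMIs) in 10x Genomics droplets, so that PCR copies of 1 molecule count once. The CON libraries came from L4 and L5 DRGs of naïve wildtype mice. The CCI libraries came from the same ganglia 3 d after chronic constriction injury (CCI), in which loose chromic gut ligatures were tied around the left sciatic nerve. The study's methods give male C57BL/6J mice aged 6 to 8 weeks, and nothing says whether a library held 1 animal or a pool, so the spread between libraries may be partly technical. Its methods describe digestion with Liberase and papain, whereas the labels describe collagenase digestion and frozen storage of the cells before loading. The labels name the cell type as neurons, but the Cxcl10-positive barcodes described here carried glial transcripts.

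SGCs wrap the cell bodies of sensory neurons and clear potassium and glutamate around them. Cxcl10 encodes a secreted chemokine that draws T cells and other cells bearing the receptor Cxcr3, and its promoter is a known target of interferon signalling through IRF1 and of NF-kB. Warm enzymatic digestion of tissue is itself known to switch on immediate early genes such as Fos and Jun and heat shock genes within minutes, so a glial cell can carry such transcripts because of the animal's state or because of its handling.

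Cells kept per library numbered 10743, 2613, 11155 and 10602 and held medians of 2508, 8352, 3675 and 4552 UMIs. CON2 thus had the fewest and deepest cells. Its barcodes led by neuron markers numbered 639, against 5731, 5985 and 3999 in CON1, CCI1 and CCI2. CCI2 stood apart from the other libraries in stress genes and in Cxcl10-positive cells. In its Cxcl10-low glia the list of dissociation genes, made of immediate early and early stress genes reported to rise during digestion, held 216 UMIs per 10000, against 91.0, 92.8 and 94.1 in CON1, CON2 and CCI1. It also supplied 970 of the 1431 Cxcl10-positive cells, so results are given per library and, where it decides a value, without it. Pairs of libraries shared 8 to 29 of their kept barcodes, 0 to 2 of their gated glia and 0 Cxcl10-positive cells.

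Glial genes were compared between the classes in cells thinned at random to 3000 UMIs each. Both classes passed the same gate, so this comparison cannot test the glial label against other cell types. The glial transcription factor gene Sox10 was found in 39.7% to 51.7% of Cxcl10-positive cells in the 4 libraries, against 39.5% to 57.1% of Cxcl10-low cells. Kcnj10, the potassium channel of SGCs, was found in 33.2% to 46.6% of Cxcl10-positive cells and in 34.9% to 51.6% of Cxcl10-low cells. Glul, which makes glutamine from glutamate, was found in 52.8% to 76.7% of Cxcl10-positive cells and in 48.4% to 83.1% of Cxcl10-low cells. In CON1 the positive cells lay lower, at 76.7% against 83.1%, and in the other libraries they lay higher.

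Cxcl10-positive cells made up 6.96% of gated glia in CON1 (exact binomial 95% interval 5.95% to 8.08%), 11.6% in CON2 (9.73% to 13.8%), 9.19% in CCI1 (7.95% to 10.5%) and 36.3% in CCI2 (34.5% to 38.1%). These intervals cover counting error only. CCI1 lay between the 2 CON libraries, and CCI2 lay above all others. The means were 9.30% ± 3.31 in CON and 22.7% ± 19.2 in CCI (SD, n = 2 each). The difference of 13.4 percentage points was smaller than the SD of the CCI libraries and became -0.11 without CCI2. The two-sided exact permutation test gave p = 0.667, and the smallest p that it can give for 2 libraries against 2 is 0.333.

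CCI2 also stood apart at equal depth. With each cell thinned to 3000 UMIs, 353, 44, 192 and 120 shallower glia were left out. The share with at least 2 Cxcl10 UMIs was then 5.29%, 7.32%, 5.72% and 31.6%, with CCI1 again between the CON libraries.

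**Figure D1:**
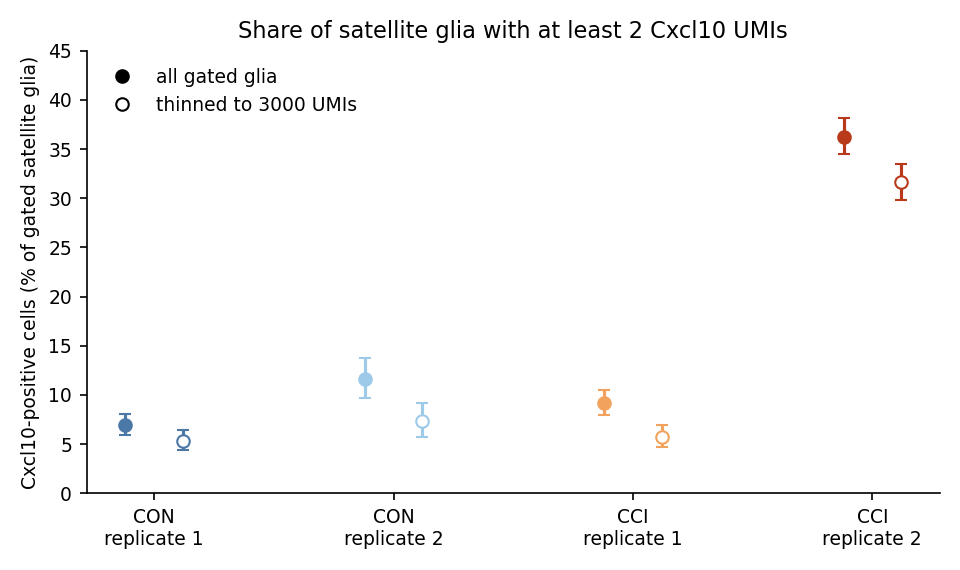
Share of gated satellite glia with at least 2 Cxcl10 UMIs in each library, in percent, over all gated glia (filled points) and with each cell thinned to 3000 UMIs (open points). Bars are exact binomial 95% intervals. CCI2 sits at 36.3% and 31.6%, and the other 3 libraries lie at 11.6% or below.

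As a check on free RNA in the droplets, the same cut was applied to barcodes led by neuron markers. At 3000 UMIs per cell, 1.23%, 0.293%, 1.69% and 8.0% of them had at least 2 Cxcl10 UMIs, a share below that of the glia in every library. Their median UMI counts before thinning were 1463, 3644, 2254 and 2378. Endothelial-marker barcodes reached 3.69%, 3.12%, 6.34% and 31.8%, and pericyte-marker barcodes 1.69%, 4.71%, 1.43% and 17.2%. Fibroblast-marker barcodes reached 2.75%, 8.70%, 8.56% and 15.6%, and myelinating Schwann cell barcodes 1.85%, 8.12%, 3.22% and 15.2%. CCI2 had the highest share in these 5 classes. Macrophage-marker barcodes reached 6.12%, 18.0%, 9.27% and 13.4%, with CON2 highest and a share above that of the glia in CON1, CON2 and CCI1. In CON2 and CCI1 the glia also lay below other classes, among them fibroblast-marker barcodes. In CCI2 the glia, at 31.6%, were level with endothelial-marker barcodes at 31.8%. In CON1 neutrophil-marker barcodes reached 6.25% of 32 cells, against 5.29% of the glia. The part of free RNA in the glial counts was not tested beyond these shares.

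The rule set the level of Cxcl10, which is therefore a description. The gene (ENSMUSG00000034855) lies on chromosome 5 at 92346638 to 92348889 of mm10 in the RefSeq annotation. Its summed level was 1145, 1114, 1220 and 3769 CPM in Cxcl10-positive glia. CPM here is the usual depth-scaled UMI count of the library and class, without mitochondrial genes and scaled by the trimmed mean of M values (TMM). A Cxcl10-positive cell held a median of 4, 8.5, 5 and 19 Cxcl10 UMIs, and the highest cell held 39, 101, 246 and 238. Cells with at least 50 UMIs numbered 0, 6, 3 and 206. Cxcl10-positive cells held 48.6%, 44.2%, 39.1% and 58.7% of all Cxcl10 UMIs in the kept cells of their library.

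Cells next to the cut were counted on both sides. Those at 1 UMI numbered 82, 58, 109 and 201, and those at 2 UMIs 39, 18, 48 and 58, with dissociation list levels of 98.8, 79.7, 115 and 201 per 10000 just outside and 89.0, 135, 128 and 276 just inside. Cxcl10-positive cells were also deeper, with median UMI counts of 4876, 13278, 7797 and 8388 against 4369, 11837, 6015 and 7001 in Cxcl10-low cells. The median mitochondrial percentage was 6.01 to 6.71 in Cxcl10-positive cells and 6.18 to 7.10 in Cxcl10-low cells. At 3000 UMIs the median number of genes was 1522, 1492, 1504.5 and 1423 against 1505, 1504, 1505.5 and 1447.

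Cxcl10-positive glia were then compared with Cxcl10-low glia on UMIs summed per library and class, with the library as a block, by the quasi-likelihood test of edgeR. Of 13174 genes tested, 107 rose and 8 fell at an adjusted p under 0.05, so that 0.873% of all genes were called, 0.812% higher and 0.0607% lower. DESeq2 called 112 higher and 3 lower. The median log2 fold change over all tested genes was -0.01. Of the 115 called genes, 107 had the same sign in all 4 libraries, as had 15.4% of all tested genes. CCI2 and CON1 carried weight in this count, which was 44 without the first and 63 without the second. Of the 107 genes that rose, 57 were in the dissociation, interferon, NF-kB or MHC class I lists and 45 in none of the 26 lists.

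Regulators that bear on Cxcl10 itself come first. Irf1, the interferon regulatory factor that binds interferon response elements, stood at 55.6, 155, 60.6 and 780 CPM in Cxcl10-positive glia, against 21.9, 45.6, 28.2 and 242 CPM in Cxcl10-low glia. It was higher in the positive cells of every library, yet the low cells of CCI2 lay above the positive cells of the other 3. Its log2 fold change was 1.56 ± 0.10 (SE, 4 libraries, edgeR adjusted p = 3.3e-05). Among positive cells at 3000 UMIs, 13.0%, 27.6%, 18.3% and 62.8% held an Irf1 UMI, against 5.50%, 11.8%, 7.35% and 29.6% of low cells. In the positive glia of CON1, 1 cell held 18 of the 47 Irf1 UMIs and 5 cells held 26.

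In the list of NF-kB targets and regulators, 8 of 21 tested genes rose and 0 fell, with a median log2 fold change of 0.66. Without CCI2, 3 of 19 rose, and without CCI1, 5 of 23. Nfkbiz, a nuclear inhibitor of kappa B family member that acts as a coactivator, was at 23.7, 18.0, 22.6 and 134 CPM against 9.56, 14.0, 8.76 and 46.6 (log2 fold change 1.27 ± 0.16, adjusted p = 0.0044). Vcam1, an adhesion molecule for leukocytes, was at 34.3, 56.3, 60.6 and 57.9 CPM against 23.5, 18.0, 14.7 and 29.2, so that every positive sum lay above every low sum (1.33 ± 0.19, adjusted p = 0.0080). Nfkbia, which holds NF-kB in the cytoplasm, is induced by it and is in the dissociation list too, rose by 0.98 (adjusted p = 0.029). Nfkb1 at 0.41 and Sod2 at 0.03 did not pass the test (adjusted p = 0.36 and 1.0). Tnfaip3, a brake on NF-kB signalling, had the largest fold change of the list, at 5.91, 6.59, 7.34 and 26.0 CPM against 2.03, 2.12, 2.17 and 4.62 (2.04 ± 0.25, adjusted p = 0.0032). It lies below the level set for named genes and was chosen after its values were seen.

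**Figure D2:**
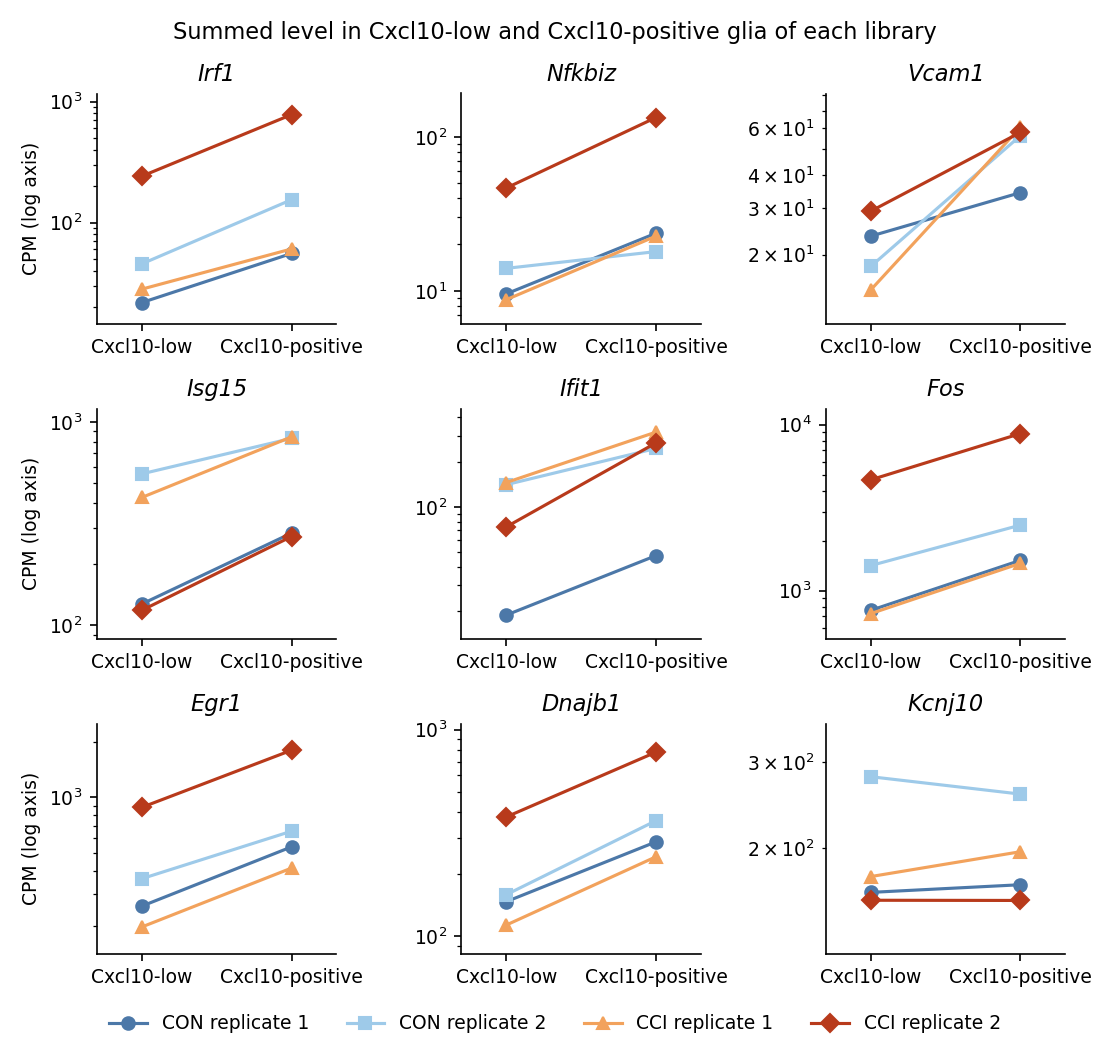
Summed level of 9 genes in CPM, on a log axis, in Cxcl10-low and Cxcl10-positive glia of each library, with 1 line per library. Lines rise from low to positive for the first 8 genes in all 4 libraries, whereas Kcnj10 differed by 0.02 on the log2 scale (adjusted p = 1.0).

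Interferon-stimulated genes formed the second group. Of 33 tested, 19 rose and 0 fell, 33 lay above 0, and the median log2 fold change was 0.83. Calls were fewer without CCI2, at 6 of 32, and without CON1, at 10 of 33, with medians of 0.72 and 0.78. Isg15, a ubiquitin-like modifier, was at 284, 829, 843 and 273 CPM in Cxcl10-positive glia, against 127, 555, 425 and 119 CPM in Cxcl10-low glia. CON2 and CCI1 were high and the other 2 libraries low in both classes, an order that did not follow the injury. The log2 fold change within libraries was 0.97 ± 0.09 (adjusted p = 0.00052).

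Ifit1, which binds viral RNA, was at 47.3, 247, 318 and 269 CPM against 18.9, 141, 146 and 73.8 (1.29 ± 0.15, adjusted p = 0.0022). Irgm1, an interferon-inducible GTPase, rose by 1.13 and the guanylate-binding protein gene Gbp2 by 1.18 (adjusted p = 0.0035 and 0.0075). Ifit3 rose by 0.93 (adjusted p = 0.014). Bst2 at 0.27 and Ifi27l2a at 0.13 did not pass (adjusted p = 0.39 and 0.99). Ifit3 and Ifit3b, like the heat shock genes Hspa1a and Hspa1b, are near-identical copies whose reads may not be told apart. The H2 genes below are related, so the same may hold for some of their reads.

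Genes of peptide presentation had smaller fold changes. In the list for MHC class I, 4 of 14 genes rose with a median of 0.26, and these were H2-Q4, H2-T23, the peptide transporter gene Tap1 and the immunoproteasome gene Psmb8, with log2 fold changes of 0.73, 0.50, 0.69 and 0.45. The count was 1 without CON1 and 2 without either CCI library. B2m, the shared light chain, was at 0.08, and the classical heavy chain genes H2-K1 and H2-D1 at 0.15 and 0.10 (adjusted p = 0.89, 0.50 and 0.74). Cd274, which encodes the T cell inhibitor PD-L1 and was chosen after its values were seen, was at 10.6, 18.0, 11.6 and 8.71 CPM against 3.25, 5.69, 5.06 and 3.42, so that the classes did not overlap (1.45 ± 0.21, adjusted p = 0.0075).

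Immediate early and stress genes were the third group. In the dissociation list, 27 of 48 tested genes rose, 0 fell and 47 lay above 0, with a median log2 fold change of 0.65. Without CCI2, 18 of 47 rose, with a median of 0.55. Fos, the partner of Jun in the AP-1 transcription factor, was at 1525, 2485, 1462 and 8846 CPM in Cxcl10-positive glia, against 762, 1418, 728 and 4658 CPM in Cxcl10-low glia. Both classes of CCI2 were high, and within each library the positive cells lay above the low cells. Its log2 fold change was 0.93 ± 0.04 (adjusted p = 3.6e-06), with 0.82 ± 0.04 for Jun and 0.80 ± 0.05 for Junb (adjusted p = 4.7e-06 and 3.3e-05).

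Other immediate early genes of the list rose too. Zfp36, which destabilises cytokine mRNAs, was at 265, 358, 255 and 1350 CPM against 133, 141, 107 and 637 (1.17 ± 0.06, adjusted p = 7.9e-06). The zinc finger genes Egr1 and Egr2 rose by 1.00 and 1.32 (adjusted p = 4.7e-06 and 0.00018). Egr2 is also a gene of myelinating Schwann cells. Socs3, the feedback inhibitor of cytokine signalling given as a marker of these cells, was at 221, 526, 300 and 1732 CPM against 126, 226, 176 and 939 (0.93 ± 0.07, adjusted p = 0.00012).

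Heat shock genes did not all move. The cochaperone gene Dnajb1 was at 286, 362, 242 and 778 CPM against 147, 159, 113 and 378 (1.08 ± 0.05, adjusted p = 4.7e-06), and Hspa1a rose by 0.52 (adjusted p = 0.043). The abundant constitutive chaperone genes Hspa8 and Hsp90aa1 were at 0.13 and 0.07 (adjusted p = 0.76 and 0.97). Of the list, Errfi1 alone lay below 0, at -0.04.

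Other chemokine genes did not pass the test in either direction. Of 13 tested, 0 were called, 10 lay above 0 and the median was 0.38. Ccl2, the monocyte chemokine, was at 23.7, 1.80, 13.5 and 123 CPM in Cxcl10-positive glia, against 5.08, 4.92, 11.2 and 89.0 CPM in Cxcl10-low glia (0.51 ± 0.24, adjusted p = 0.73). Both classes of CCI2 were high, and CON2 ran the other way. Cxcl1, Cxcl2 and Ccl7 were at 0.84, 0.49 and -0.16 (adjusted p = 0.58, 0.67 and 1.0). With barcodes holding markers of other cell types left out, Ccl2 at 1.36 and Cxcl1 at 1.33 passed the test.

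The receptor Cxcr3 was counted in 0 of 1431 Cxcl10-positive cells. Pooled over the 4 libraries as if all cells were independent, this allows up to 0.21% of such cells with a UMI. Because 970 of the 1431 came from CCI2 and each library held fewer cells, the limit for any single library is looser. Among Cxcl10-low glia, 0, 1, 2 and 1 cells held a Cxcr3 UMI. Outside the glial gate, 12, 2, 31 and 61 cells held a Cxcr3 UMI. Of the 12 marker genes for T cells and natural killer cells none was abundant enough to be tested, and 6 had 0 UMIs in Cxcl10-positive glia. Ifng, the interferon gamma gene, was at 0 UMIs in Cxcl10-positive glia of all 4 libraries.

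Cytokine genes beyond chemokines gave 1 call among 14, Hbegf, a ligand of the EGF receptor, which rose by 0.44 (adjusted p = 0.012). The list for STAT3 signalling gave 1 of 19, Socs1, at 8.28, 28.2, 23.3 and 102 CPM against 4.78, 9.65, 11.5 and 42.0 (1.25 ± 0.12, adjusted p = 0.00064), and its median was -0.01. Stat3 was at 0.34 (adjusted p = 0.39). The list for the integrated stress response gave 0 of 17 with a median of 0.07, and Atf4 was at 0.29 (adjusted p = 0.22). Among 14 genes of oxidative stress and metal handling only Hmox1, heme oxygenase 1, rose, by 0.92 (adjusted p = 0.025), and the metallothionein gene Mt1 was at 0.30 (adjusted p = 0.22).

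Genes of glial identity differed little between the classes. Of 26 tested, 1 rose and 0 fell, with a median of 0.05. Kcnj10 was at 168, 258, 196 and 156 CPM in Cxcl10-positive glia against 162, 280, 175 and 156 CPM in Cxcl10-low glia, and its values overlapped (0.02 ± 0.06, adjusted p = 1.0). Foxd3, a neural crest transcription factor gene, was the call, at 110, 156, 157 and 258 CPM against 89.0, 123, 120 and 195 (0.37 ± 0.05, adjusted p = 0.0089).

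Cholesterol synthesis genes, prominent in SGCs, gave 0 calls among 22, with a median of -0.02, and Hmgcs1 was at -0.06 (adjusted p = 0.84). Among 22 reactive glia genes only Vim, an intermediate filament gene, rose, by 0.18 (adjusted p = 0.030), and the median was -0.01. Cell cycle genes gave 0 of 14. Among the called genes in no list, Gbp5, a guanylate-binding protein gene chosen after its values were seen, had the largest fold change, at 5.91, 21.0, 16.5 and 40.3 CPM against 1.42, 5.50, 5.06 and 8.90 (1.99 ± 0.16, adjusted p = 0.00016).

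Markers of other cells were followed in both classes. Endothelial, fibroblast, pericyte, macrophage and neutrophil lists gave 0 calls among 9, 6, 8, 14 and 4 tested genes. Their summed levels ranged from 50.2 to 198, 298 to 934, 59.1 to 313, 21.6 to 305 and 9.59 to 1173 CPM in Cxcl10-positive glia, and from 88.3 to 210, 402 to 914, 85.8 to 157, 26.0 to 436 and 11.4 to 434 CPM in Cxcl10-low glia. Within libraries the ratio of positive to low went both ways. It was 1.13, 1.31, 0.24 and 2.24 for endothelial, 0.74, 0.87, 0.90 and 1.02 for fibroblast and 0.38, 3.04, 0.79 and 1.87 for pericyte genes. For macrophage genes it was 2.80, 0.11, 6.74 and 0.61, and for neutrophil genes 2.70, 0.84, 0.42 and 15.3. All 4 neutrophil genes tested had an unadjusted p under 0.05 in edgeR, with a median log2 fold change of 2.10. In the myelinating Schwann cell list 1 gene rose, Egr2, and 1 fell among 9, with a median of -0.15. Barcodes with at least 3 UMIs of macrophage, endothelial, fibroblast or pericyte markers made up 19.4%, 77.1%, 58.5% and 65.6% of Cxcl10-positive glia and 17.7%, 70.0%, 46.1% and 52.8% of Cxcl10-low glia, a higher share in the positive class of every library. Positive cells were also deeper, and the part of these barcodes in the results was tested only by leaving them out. Single barcodes made up some of the sums. One cell held 442 of the 451 S100a9 UMIs in the positive glia of CON1, and 5 cells held 1720 of 1762 in CCI2. S100a9, a neutrophil gene, was at 533, 4.19, 6.12 and 222 CPM against 184, 4.63, 17.8 and 9.16 (2.13 ± 0.61, adjusted p = 0.30).

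Most of the 8 genes that fell are known from red blood cells or neurons. The adult haemoglobin gene Hbb-bs was at 321, 8.39, 36.1 and 255 CPM in Cxcl10-positive glia, against 941, 11.7, 245 and 590 CPM in Cxcl10-low glia (-1.59 ± 0.19, adjusted p = 0.0033). One cell held 219 of its 271 UMIs in the positive glia of CON1, and 1 cell held 1601 of 2020 in CCI2. Hbb-bt fell by 2.05 on the log2 scale, the neurofilament gene Nefl by 0.33 and the neuropeptide genes Nts and Npy by 0.84 and 0.92 (adjusted p = 0.00044, 0.028, 0.017 and 0.038). Tmem233 fell by 0.73 and Nppb, a natriuretic peptide gene of itch neurons chosen after its values were seen, by 2.24 (adjusted p = 0.020 and 0.044). Under DESeq2 Hbb-bs, Hbb-bt, Nts, Npy and Nppb did not pass (adjusted p from 0.071 to 1.0), and without CON1 edgeR called 1 gene lower, Hbb-bt. The neuron list gave 1 call among 14, with a median of -0.15. Its summed level was 6361, 2054, 5491 and 3939 CPM in positive and 7378, 980, 6953 and 4240 CPM in low glia. CON2 thus ran the other way, with 2.10 times the level of low glia in its positive glia.

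The dissociation list was set against the Cxcl10-positive cells in 4 ways. The first was the summed level. Per 10000 UMIs, Cxcl10-positive glia held 130, 143, 131 and 364 UMIs of the list, which after removal of mitochondrial genes was 1.43, 1.54, 1.38 and 1.68 times the level of Cxcl10-low glia (geometric mean 1.50, SD 0.13, n = 4). The ratio was above 1 in every library. Yet Cxcl10-positive cells of the first 3 libraries held less of the list than the Cxcl10-low cells of CCI2, at 216.

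The second was the share of Cxcl10-positive cells over the range of the list. Gated glia of each library were thinned to 3000 UMIs and ranked into quartiles by list UMIs. From the lowest to the highest quartile, the Cxcl10-positive share went from 4.32% to 12.3% in CON1, from 10.3% to 16.5% in CON2, from 6.22% to 14.9% in CCI1 and from 9.40% to 53.7% in CCI2. In the lowest quartile CCI2 was nearer to the other libraries than in the highest, with an interval of 7.25% to 11.9%. That interval overlapped those of CON2 (6.80% to 14.9%) and CCI1 (4.17% to 8.87%) and lay above that of CON1 (2.69% to 6.53%). The lowest quartile held 14.4%, 21.6%, 15.6% and 6.27% of the Cxcl10-positive cells. Median list UMIs of that quartile were 11, 6, 12 and 13, and those of the highest quartile 47, 77, 50.5 and 180.

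**Figure D3:**
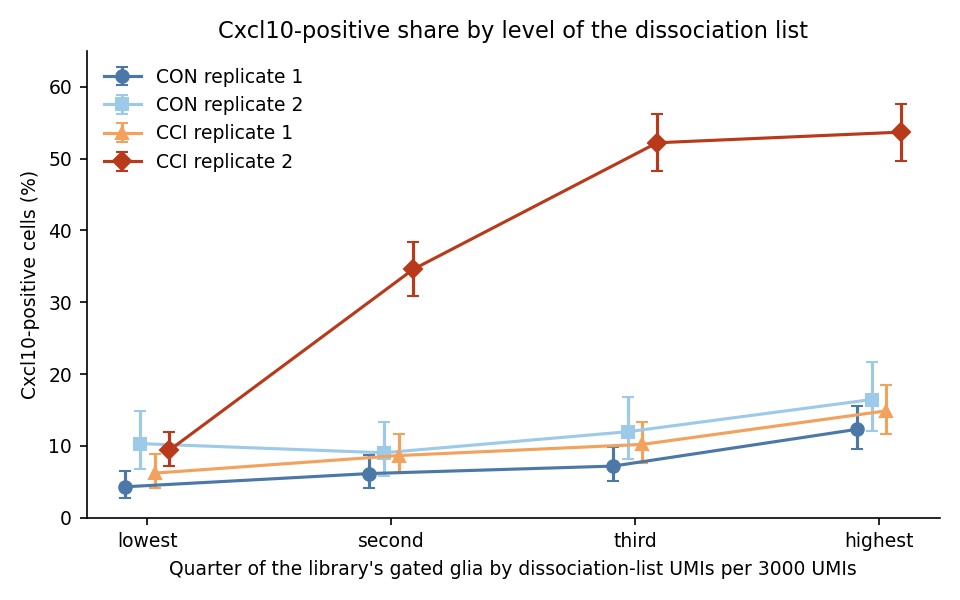
Percent of gated glia that were Cxcl10-positive, by quartile of each library's glia ranked on dissociation list UMIs per 3000 UMIs, with exact binomial 95% intervals. The share in CCI2 runs from 9.40% to 53.7% and in the other 3 libraries ends between 12.3% and 16.5%.

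The third was a count of cells. A cell was called high for a list when it exceeded the 75th percentile of the Cxcl10-low glia of its library at 3000 UMIs. Cxcl10-positive cells high for the dissociation list made up 43.2%, 36.2%, 38.3% and 48.7%, against 24.5%, 25.1%, 24.4% and 24.7% of Cxcl10-low cells, which the cut fixes near 25%. Those high for the interferon list made up 42.5%, 30.2%, 44.4% and 47.4%, against 19.8%, 22.0%, 22.3% and 23.4% of Cxcl10-low cells. Cells high for the interferon list only were 24.7%, 16.4%, 30.0% and 20.9% of Cxcl10-positive cells, against 14.6%, 16.2%, 15.5% and 13.0% of Cxcl10-low cells. For the dissociation list only, they were 25.3%, 22.4%, 23.9% and 22.2% against 19.3%, 19.2%, 17.5% and 14.2%. Cells high for both were 17.8%, 13.8%, 14.4% and 26.5% against 5.22%, 5.85%, 6.85% and 10.5%. Cells high for neither were 32.2%, 47.4%, 31.7% and 30.4% against 60.9%, 58.8%, 60.1% and 62.4%. The cuts differed between libraries, at 30, 21.75, 30 and 107 dissociation list UMIs, and the Cxcl10-positive cells had medians of 26.5, 15, 25.5 and 106. Being high was thus relative to the library, and the median positive cell of CCI2 lay far above the cuts of the other 3.

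Within Cxcl10-positive cells the lists also followed Cxcl10 to differing degrees. Cells were ranked into tertiles by Cxcl10 per UMI. In CCI2 the dissociation list went from 259 to 390 to 479 per 10000, the NF-kB list from 10.7 to 18.9 to 27.4 and the interferon list from 15.0 to 22.6 to 29.4. In CCI1 the dissociation list stayed at 133, 131 and 126, while the interferon list went from 34.8 to 44.9 to 76.9. In CON1 the dissociation list went from 113 to 117 to 171 and the interferon list from 10.8 to 13.4 to 16.8. In CON2 the dissociation list went from 101 to 145 to 204, and the interferon list from 43.9 to 37.7 to 54.1, so that there the dissociation list had the larger relative rise. Irf1 was at 1.19, 3.08, 0.93 and 11.4 per 10000 in the highest tertile, against 0.32, 0.64, 0.45 and 2.98 in the lowest. These values are descriptions over cells of single libraries and were not tested.

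**Figure D4:**
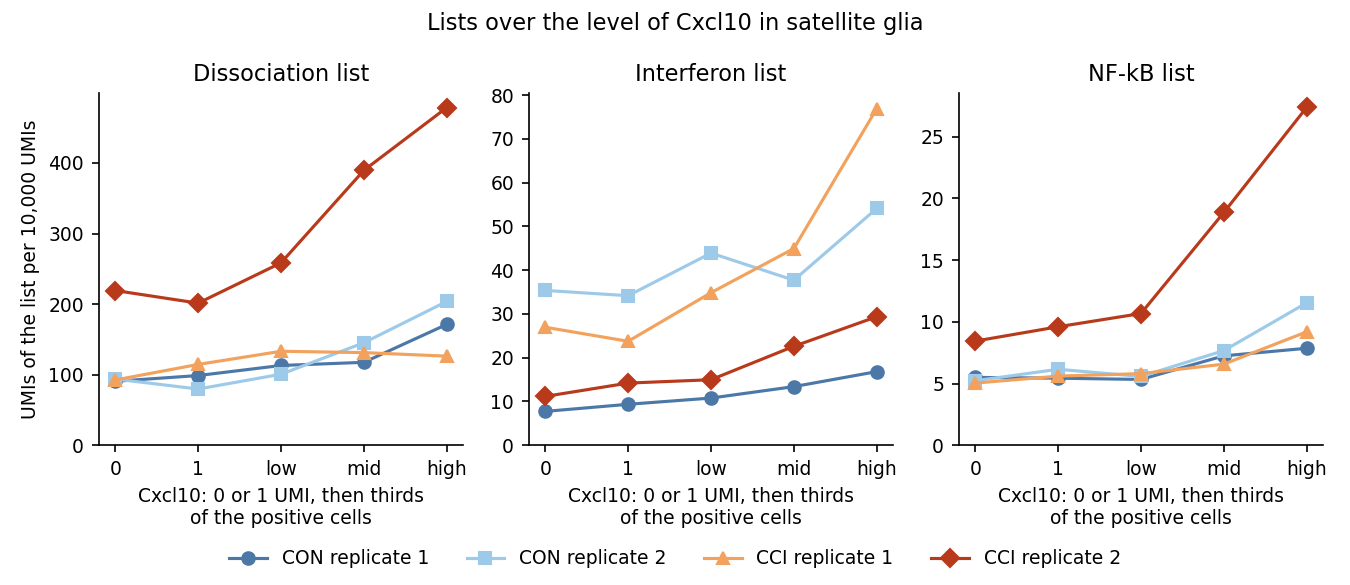
UMIs of the dissociation, interferon and NF-kB lists per 10,000 UMIs in gated glia with 0 or 1 Cxcl10 UMI and in tertiles of the Cxcl10-positive cells by Cxcl10 level, 1 line per library. CCI2 leads for the dissociation and NF-kB lists, and CCI1 reaches the highest interferon level, at 76.9.

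The fourth was matching. Each Cxcl10-positive cell was paired with a Cxcl10-low cell of its library with a like UMI count, and then with one chosen for likeness in both UMI count and dissociation list level. Against glia matched on UMI count alone, 109 of 10109 genes were called (1.08%, 0.999% higher and 0.0791% lower), 84 of them also called above, with 27 of 46 dissociation genes and 17 of 29 interferon genes higher. Against glia matched on both, 18 of 10122 genes were called (0.178%, 0.168% higher and 0.00988% lower), 17 of them also called above, with 0 of 46 dissociation genes and 7 of 29 interferon genes higher. Over all list members tested, the median log2 fold change went from 0.69 to 0.14 for the dissociation list, which the matching itself was made to level, from 0.73 to 0.68 for the interferon list and from 0.69 to 0.62 for the NF-kB list.

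The match on both was incomplete in CCI2 for both measures. There the matched cells held 301 list UMIs per 10000 against 364 in the positive cells, and a median of 7302 UMIs against 8388. The list levels of the other libraries were near, at 132, 142 and 125 against 130, 143 and 131.

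Genes called higher against glia matched on both included Irf1 (log2 fold change 1.14 ± 0.09, adjusted p = 0.00064), Isg15 (0.77 ± 0.08, adjusted p = 0.0042), Ifit1 (1.07 ± 0.15, adjusted p = 0.025), Vcam1 (1.36 ± 0.21, adjusted p = 0.039), Nfkbiz (1.00 ± 0.13, adjusted p = 0.019) and Gbp5 (1.64 ± 0.18, adjusted p = 0.0055). The other interferon genes called were Igtp, Irgm1, Ifih1, Ifi47 and Ddx58, at 0.75, 0.85, 0.74, 1.00 and 0.76. Tap1, Psmb8, the matrix protein gene Postn, the syndecan gene Sdc4 and Sostdc1, a secreted antagonist of BMP and Wnt signalling, were called at 0.63, 0.37, 0.55, 0.41 and 0.36. S100a9, carried by few cells as given above, was called at 4.66, and Hbb-bt was called lower at -3.06. Fos was at 0.25 (adjusted p = 0.072) and Zfp36 at 0.25 (adjusted p = 0.68), and Hspa1a turned to -0.13 (adjusted p = 0.95).

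A closer match, added after these values were seen, kept only pairs within 0.2 SD on both measures, which left 156, 111, 177 and 205 pairs. It called 14 of 9991 genes (0.14%, 0.0801% higher and 0.0601% lower), of which 8 were higher and 6 lower. The higher genes were Irf1, Isg15, Ifit1, Igtp, Vcam1, Gbp5, the neutrophil gene S100a9 at 5.11 and the macrophage gene Lyz2 at 2.72. The lower genes were the haemoglobin genes Hbb-bs, Hbb-bt, Hba-a1 and Hba-a2 and the cell cycle genes Cenpf and Ube2c, at -3.92, -4.62, -3.25, -3.23, -3.25 and -2.70. Lyz2, Hba-a1, Hba-a2, Cenpf and Ube2c were chosen after their values were seen. Among all Cxcl10-positive glia, 5 cells held 89 of 91 Lyz2 UMIs in CON1 and 265 of 378 in CCI2. In CCI1, 1 cell held 24 of 26. For Cenpf, 1 cell held 198 of 211 UMIs in the positive glia of CON2. How many cells carried these genes within the close pairs was not counted. Interferon genes called numbered 3 of 29 and dissociation genes 0 of 46, and the medians were 0.09 for the dissociation list, 0.70 for the interferon list and 0.61 for the NF-kB list.

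**Figure D5:**
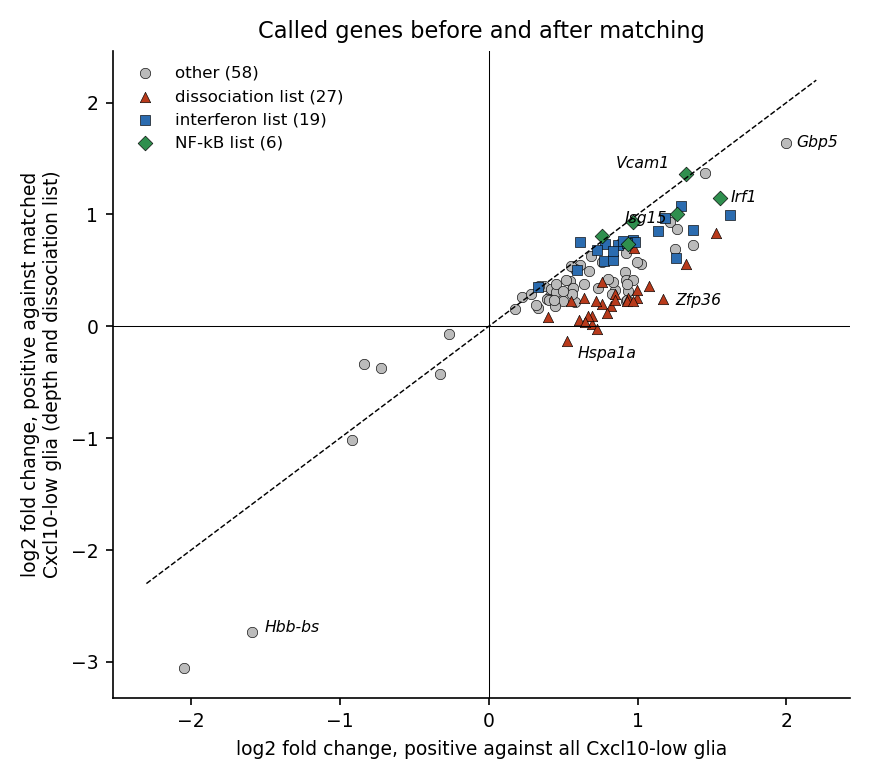
Log2 fold change of 110 genes called in the comparison with all Cxcl10-low glia (horizontal axis) against their log2 fold change with Cxcl10-low glia matched on UMI count and dissociation list (vertical axis). Genes of the dissociation list lie well below the dashed line of equality, which the matching brings about, and interferon and NF-kB genes, the latter outside the dissociation list, lie nearer to it.

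CCI was compared with CON within the Cxcl10-positive glia. Of 10208 genes tested with edgeR, 0 were called (0%), 467 had an unadjusted p under 0.05, and DESeq2 called 11. Without CCI1, edgeR called 33 genes, and without CON1 it called 1. The same fit on Cxcl10-low glia called 2 of 13532 genes (0.0148%), the injury genes Sprr1a and Npy, with 479 at an unadjusted p under 0.05.

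Injury transcripts were present in Cxcl10-positive glia of both CCI libraries. Atf3, an injury and stress transcription factor gene, was at 89.9, 122, 310 and 952 CPM, with no overlap between the groups (2.56 ± 0.55, adjusted p = 0.91). With cells thinned to equal depth, 11.6%, 9.48%, 28.3% and 58.6% of Cxcl10-positive glia held an Atf3 UMI. Among Cxcl10-low glia the shares were 7.33%, 7.49%, 31.7% and 39.2%, also higher in both CCI libraries. In CCI1 the low cells lay above the positive cells. Sprr1a, known from injured neurons, had 0 UMIs in both CON libraries and 81 and 1129 UMIs, or 49.6 and 143 CPM, in the CCI libraries. Gal, a neuropeptide gene of injured neurons, was at 29.6, 49.7, 264 and 234 CPM (2.61 ± 0.29, adjusted p = 0.91), and at 30.1, 8.88, 472 and 249 CPM in Cxcl10-low glia. The part that free neuronal RNA has in these levels was not tested.

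The lists did not all follow the injury. Summed dissociation genes stood at 13563, 14756, 13789 and 42572 CPM in Cxcl10-positive glia, so that CCI1 lay within the CON libraries, and the median CCI over CON log2 fold change was 1.11 over 46 genes, against 0.01 over all genes. Without CCI2 that median was -0.20. Summed interferon genes stood at 1385, 4612, 5111 and 2521 CPM, with overlap between the groups and a median of 0.36 over 30 genes, which ran from -0.33 to 1.20 with 1 library left out. Reactive glia genes stood at 10937, 12028, 16276 and 18443 CPM without overlap, with a median of 0.97 over 19 genes, of which 11 had an unadjusted p under 0.05 and 0 passed adjustment. Serpina3n, an acute-phase protease inhibitor gene in the list for STAT3 signalling and not in the reactive list, was at 103, 49.7, 173 and 386 CPM (1.90 ± 0.50, adjusted p = 0.91). In Cxcl10-low glia the median of the reactive list was 0.80. The reactive list shares a gene with the neuron list. Genes of injured sensory neurons had a median of 2.61 over 9 genes in the Cxcl10-positive glia. The part that free neuronal RNA has in the reactive list was not tested.

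Whether the difference between Cxcl10-positive and Cxcl10-low glia itself changed with CCI was tested as an interaction. Of 13933 genes, 0 were called by edgeR (0%) and 0 by DESeq2, and 417 had an unadjusted p under 0.05. Leaving out 1 library at a time gave 3 to 68 calls, with 68 without CCI1, 44 without CON1, 9 without CCI2 and 3 without CON2. The median interaction over the interferon list was 0.40, against 0.04 over all genes, and it was 0.07 without CON2.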

How the data were processed

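The authors' reads were trimmed (fastp) and aligned to mm10 with Cell Ranger, and the submitters' processing notes name CASAVA 1.8, Cell Ranger and Seurat. What they deposited is UMI counts, whole and not normalized, for 31253 genes (cellranger 5.0.1), with 52074235 to 135009606 UMIs per library. Here 13 mitochondrial genes were removed after the filter on cells, and the 9 genes of the rule were not tested. Sums per library and class, of 828844 to 8680778 UMIs for Cxcl10-positive glia, went into edgeR 4.0.16 under R 4.3.3 (TMM, filterByExpr, glmQLFit and glmQLFTest, Benjamini-Hochberg, adjusted p under 0.05). Alternatives were DESeq2 1.42.0, upper-quartile factors, other cuts and filters, thinning, matching and each library left out. No doublet caller was run, and barcodes with at least 3 UMIs of macrophage, endothelial, fibroblast or pericyte markers were left out as an alternative. Log2 ratios per library added 0.5 CPM. Exact binomial intervals came from scipy 1.17.1.

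The members, gene lists and tests were chosen with earlier results of these data known. Of 437 list genes, 431 were found in the matrices. By rule, the genes named are, in each direction, the 10 that changed most among those called with 1 sign in all libraries and a mean log2 CPM no lower than 5, the markers given for these cells, Cxcr3 and up to 6 members of each list with the highest mean CPM. Genes outside this rule were named where few were called in a list or after their values were seen. The tests were tried on simulated counts. A few genes of these lists are not reported here.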

Additional observations from a re-analysis of the deposited data

Results flagged for a closer look

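For 2 named genes both CON libraries moved one way and both CCI libraries the other between Cxcl10-positive and Cxcl10-low glia. The share of all tested genes with this pattern is not given here, so the pattern alone does not set these genes apart. B2m, the light chain of MHC class I, had log2 ratios of -0.02 and -0.06 in CON1 and CON2 and of 0.23 and 0.15 in CCI1 and CCI2, a difference between the group means of 0.23 (edgeR interaction, adjusted p = 1.0). Sod2, a mitochondrial antioxidant enzyme and NF-kB target, had log2 ratios of -0.16 and -0.05 in CON and of 0.05 and 0.21 in CCI, also a difference of 0.23 (edgeR interaction, adjusted p = 1.0).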

How the results depend on the processing

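For Cxcl10-positive against Cxcl10-low glia, the 115 calls became 258 with no filter on low counts, 201 with cells thinned, 190 without mixed barcodes, 18 and 14 in the matched and closely matched fits, and 0 in edgeR without the library block (118 genes at an unadjusted p under 0.05; DESeq2 was not run without it), where the spread between libraries enters the error. Leaving out 1 library gave 44 (without CCI2) to 156 (without CON2), and 63 without CON1. The other alternatives gave 93 to 126. For CCI against CON, the 0 calls became 11 with DESeq2, 264 with no filter, and 0 to 33 with 1 library left out, highest without CCI1. Replicate numbers are shared between groups in the labels, and a replicate block gave 12 calls, but the deviations of CON1 and CCI1 correlated at only 0.12 over 10214 genes and there are 2 pairs, so the numbers were not taken to pair the libraries. The interaction gave 80 calls with no filter, 8 thinned and 3 to 68 with 1 library left out. Signs turned in the close matches, added after the data were seen, for Atf3 (-0.27), Cebpd (-0.019), Hspa1a (-0.13), Tmem233 (0.10) and Cenpf (-3.25), and for Hspa1a also in the matched fit (-0.13). Cenpf rested on few cells in the positive glia of CON2, as given above. With 2 libraries a group, library effects cannot be told apart from CCI.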

Other observations

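The called genes that no list held, named here after their values were seen, included regulators and feedback genes. Phlda1, a gene induced by growth factor signalling, was at 351, 585, 467 and 1756 CPM in Cxcl10-positive glia of CON1, CON2, CCI1 and CCI2, against 207, 329, 267 and 759 CPM in Cxcl10-low glia (log2 fold change 0.92 ± 0.07, edgeR adjusted p = 0.00014). Bhlhe40, a transcriptional repressor gene of the clock and immune cells, was at 37.8, 126, 54.5 and 361 CPM against 24.1, 64.5, 31.7 and 175 (0.93 ± 0.08, adjusted p = 0.00018). Both were higher in the positive cells of every library and highest in CCI2. Bambi, a decoy receptor gene of TGF-beta signalling, rose by 0.64, and Zfp36l1, a relative of Zfp36, by 0.56 (adjusted p = 0.0016 and 0.018).

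Hes1 and Id2, repressor genes that act downstream of Notch and BMP signalling, rose by 0.45 and 0.40, and the cyclin gene Ccnd1 by 0.39 (adjusted p = 0.023, 0.035 and 0.0084). The innate sensing genes Casp4, Cd14 and Map3k8 rose by 1.02, 0.99 and 1.51 (adjusted p = 0.0098, 0.045 and 0.014). Cd14, which macrophages also express, was at 27.2, 16.2, 7.34 and 131 CPM against 6.91, 9.94, 7.96 and 61.6, so that CCI1 did not share the direction of the other 3 libraries. Against glia matched on UMI count and dissociation list, Phlda1 was at 0.41, Bhlhe40 at 0.32 and Casp4 at 0.55 (adjusted p = 0.090, 0.56 and 0.31).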
